A study of Mus musculus with 8 samples.

Results

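The 9 genes described here encode surface proteins and stemness markers of epithelial tumor cells: Epcam, Cd24a, Cd44, Muc1, Prom1, Aldh1a1, Sox9, Lgr5 and Procr. They were taken from the deposited gene counts by symbol, 1 entry per gene, and are 9 of the 31894 genes with an identifier. All 9 passed the filter on low counts, together with 13598 genes in all. The question put to them was whether the level of each marker differed between E-cadherin-high (E-cadHI) and E-cadherin-low (E-cadLO) tumor cells of the same breast cancer brain metastasis (BCBM).

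The tumor cells came from primary tumors of the MMTV-PyMT mouse, in which the MMTV promoter drives the polyoma middle T oncogene, and carried an E-cad-mCFP reporter. Tumor pieces were transplanted for 6 rounds in the brain and then grown as organoids, and the sources used here do not say whether the 4 hosts received cells of the same primary tumor. The organoids carried the nuclear marker H2B-Dendra2 and were injected into the brain of female mice, which the labels give as FVB and wild type, aged 8 to 20 weeks at injection. After 2.5 weeks, live Dendra2-positive cells with low tdTomato were sorted by CFP, with CFP-positive cells taken as E-cadHI and CFP-negative cells as E-cadLO. Both groups thus share the oncogene, the reporter, the nuclear marker and the host strain, and they were separated by CFP. Each of the mice 57, 58, 67 and 70 gave 1 bulk mRNA library of each population, 8 libraries in all with 4 per group, and the mouse number in the labels pairs them. None of the 9 markers was part of the gate.

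Total counts ranged from 9102781 to 15769200 per library. Cdh1, the gene of E-cadherin itself, stood at 93.2 to 132 CPM (normalized counts, scaled to the library total after TMM normalization) in the E-cadHI libraries and at 59.0 to 181 CPM in the E-cadLO libraries. It was lower in E-cadLO cells of 3 mice and higher in mouse 58, and its log2 fold change was -0.17 ± 0.33 (SE, 4 mice per group), with an adjusted p of 0.809 in edgeR. The sort was on the reporter protein, which the level of Cdh1 mRNA does not check. In bulk libraries, fewer cells of a type cannot be told apart from less RNA per cell. All 14 markers of the tumor epithelium were detected in each library, and they summed to 19203 to 29048 CPM in E-cadHI and 7985 to 24180 CPM in E-cadLO, led by the milk protein gene Csn3 and the keratin gene Krt18. The log2 fold change was above 0 for 18 of 18 genes of microglia and macrophages, 15 of 15 of astrocytes, 12 of 14 of oligodendrocytes, 13 of 13 of neurons, 12 of 12 of endothelium and 10 of 12 of fibroblasts and mural cells, against 55.1% of all tested genes. It was above 0 for 3 of 7 genes of ependyma and choroid plexus (median -0.41) and 1 of 3 of neutrophils (median -1.03). The 12 neutrophil markers summed to 12813 to 19309 CPM in E-cadHI and 2644 to 12566 CPM in E-cadLO. In each library 4 to 7 of them were at 0, so few genes carried that sum, and it is not a measure of neutrophils. Sox9 is among the astrocyte genes, Procr among those of endothelium and Prom1 among those of ependyma and choroid plexus. These counts and medians include the 3 members, and the median of ependyma and choroid plexus is the value of Prom1 itself. The summed levels leave the members out. None of the genes of these 8 lists was called in edgeR without the mouse. With the mouse as a block, 5 genes of microglia and macrophages, 4 of astrocytes, 2 of oligodendrocytes, 2 of neurons, 1 of ependyma and choroid plexus and 0 of the other 3 lists were called higher, where 0.728% of all genes were. The microglia and macrophage markers summed to 39.1 to 336 CPM in E-cadHI and 269 to 1199 CPM in E-cadLO, and at most 2 of the 18 were at 0 in a library. The 12 lymphocyte markers summed to at most 3.50 and 21.7 CPM and did not pass the filter.

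As background, EpCAM, CD24, MUC1 and CD133 (the product of Prom1) lie in the surface membrane of epithelial cells, and EpCAM is used to recognise carcinoma cells in tissue and blood. CD44 binds hyaluronan, and a high level of CD44 with a low level of CD24 is a classical description of breast cancer cells with stem-like behaviour. Aldehyde dehydrogenase 1A1, SOX9, LGR5 and the protein C receptor are used as markers of stem or progenitor cells in the mammary gland or in other epithelia. In the brain, Aldh1a1 and Sox9 are also made by astrocytes, and Procr is made by endothelial cells in many organs.

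The promoters of Epcam, Muc1 and Cd44 are shown because Epcam and Muc1 were lower in E-cadLO cells of all 4 mice while Cd44 was not. Each is the 250 bases before the transcription start in the RefSeq promoters of GRCm38.p6, 5′ to 3′ on the strand of the gene. Capitals mark the E-box letters CACCTG or their reverse complement CAGGTG, which are the letters bound by the SNAIL and ZEB families of repressors. The windows are chr17:87635729-87635978 on the plus strand for Epcam, chr3:89228806-89229055 on the plus strand for Muc1 and chr2:102901666-102901915 on the minus strand for Cd44.
Epcam: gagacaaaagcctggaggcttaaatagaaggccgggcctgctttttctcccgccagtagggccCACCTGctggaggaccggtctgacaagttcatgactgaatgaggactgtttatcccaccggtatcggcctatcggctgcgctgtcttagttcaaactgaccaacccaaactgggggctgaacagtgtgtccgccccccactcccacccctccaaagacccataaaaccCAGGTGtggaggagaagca
Muc1: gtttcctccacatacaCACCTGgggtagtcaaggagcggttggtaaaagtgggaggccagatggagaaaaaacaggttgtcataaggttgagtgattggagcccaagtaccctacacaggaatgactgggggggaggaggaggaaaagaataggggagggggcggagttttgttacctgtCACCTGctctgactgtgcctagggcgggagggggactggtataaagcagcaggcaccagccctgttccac
Cd44: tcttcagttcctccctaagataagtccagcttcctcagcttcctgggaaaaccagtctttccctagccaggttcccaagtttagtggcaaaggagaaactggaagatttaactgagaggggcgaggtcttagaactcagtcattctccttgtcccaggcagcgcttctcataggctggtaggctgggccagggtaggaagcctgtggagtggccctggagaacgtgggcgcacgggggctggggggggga

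The Epcam window held these letters at 187 and 19 bases before the start and the Muc1 window at 234 and 70 bases before it, each counted from the first letter of the match. The Cd44 window held none. Of all 32851 promoters of the same length, searched on both strands, 17.2% held at least 1 match and 2.06% held 2 or more. Of the other members with an entry, Prom1 had 1 match in the first of its 2 windows, Aldh1a1 had 1 match in the first of its 2 windows and Procr had none. That Aldh1a1 window, chr19:20492333-20492582, lies far before the start of the gene in the count table, 20601961. Aldh1a1 was higher in E-cadLO cells of all 4 mice. Cd24a, Sox9 and Lgr5 had no entry in the table. A match is a description of the letters and not a site of binding, and no match says nothing about a factor.

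Per kilobase of annotated exon (union over transcripts, GENCODE M21), Epcam had the highest level of the 9 in E-cadHI cells, with 577 ± 42.5 CPM per kilobase (SD, 4 mice), followed by Cd24a with 148 ± 27.7, Muc1 with 58.1 ± 20.1, Cd44 with 23.1 ± 2.29 and Sox9 with 13.98 ± 3.41 CPM per kilobase. The 4 libraries of each of these genes lay wholly above those of the next gene in this order. Prom1 came next with 6.61 ± 1.42 CPM per kilobase, Aldh1a1 with 2.08 ± 3.74, Procr with 0.366 ± 0.310 and Lgr5 with 0.0592 ± 0.0778, and the ranges of these 4 neighbours overlapped. In E-cadLO cells the levels were closer together, and Epcam, with 342 ± 153 CPM per kilobase, overlapped Cd24a, with 89.7 ± 54.9. Muc1 at 29.1 ± 14.3 and Cd44 at 26.4 ± 8.49 CPM per kilobase, which had not overlapped in E-cadHI cells, also overlapped.

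**Figure D1:**
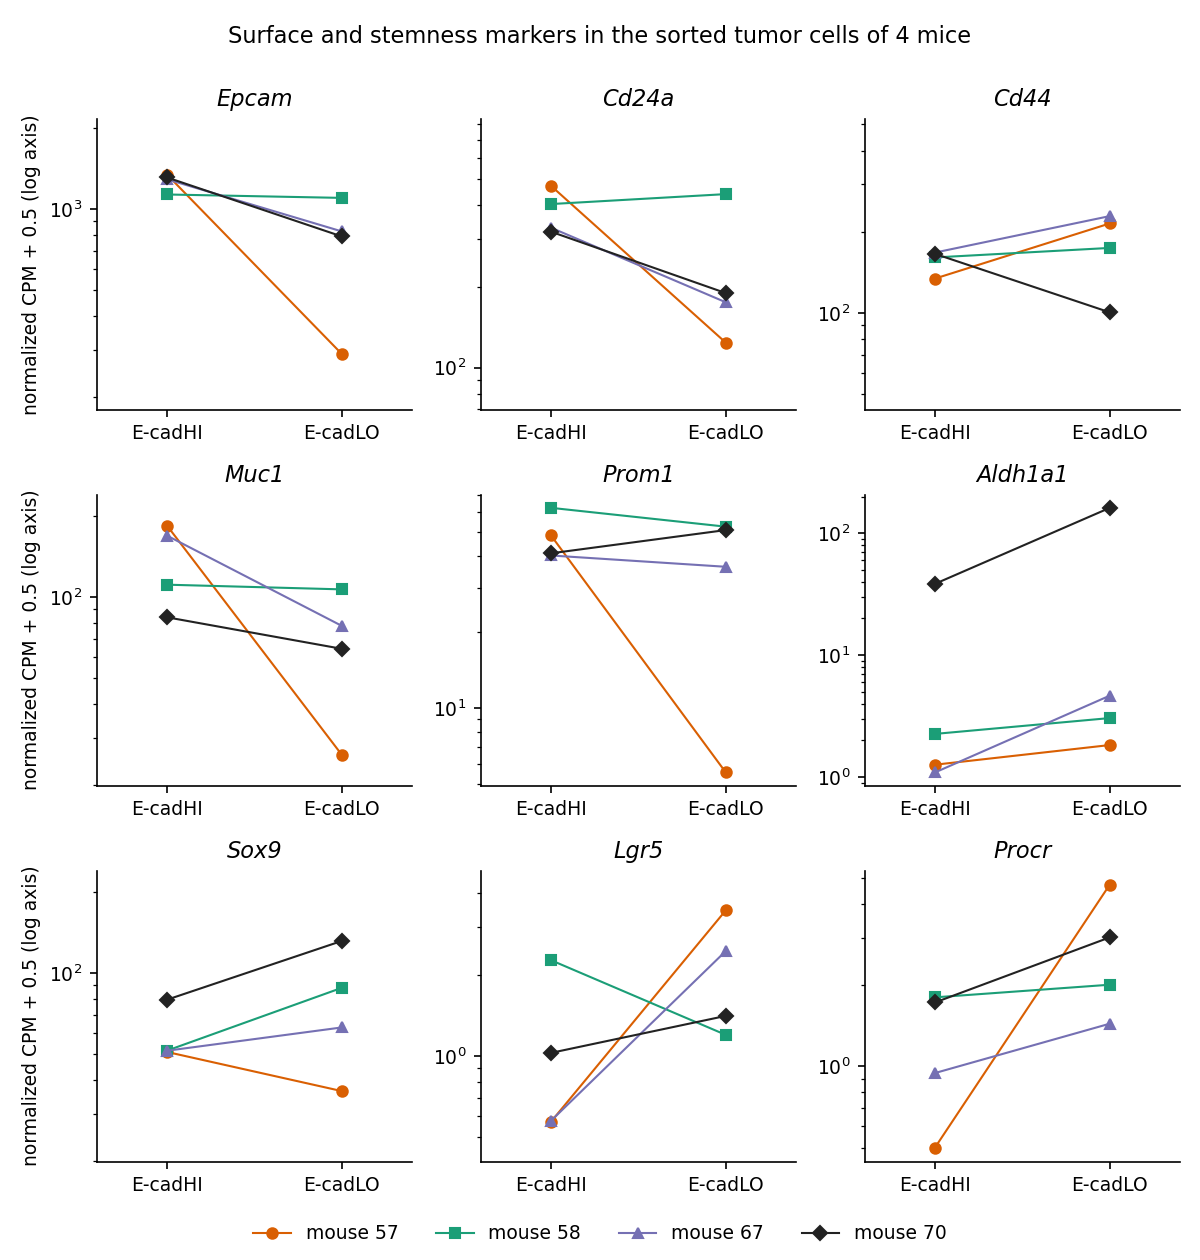
Normalized CPM plus 0.5 on a log axis for each of the 9 markers, with 1 panel per gene and a range of its own in each, in E-cadHI (left) and E-cadLO cells (right), with a line joining the 2 libraries of each mouse. Epcam and Muc1 are lower in E-cadLO of each mouse, but by little in mouse 58; Aldh1a1 lies far higher in mouse 70 than in the other mice in both populations.

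Across the 9 markers, none differed between E-cadLO and E-cadHI cells at an adjusted p under 0.05 in edgeR's quasi-likelihood test, in which the share of all tested genes called was 0% higher and 0% lower. The smallest adjusted p over all 13598 genes was 0.114 and the smallest among the members was 0.333, that of Muc1. At an unadjusted p under 0.05, 1 of 9 members was lower (Muc1) and 0 were higher, where 5.81% of all tested genes were lower and 8.16% higher. By DESeq2, 0 of the 9 members were called, where 2.19% of all genes were called higher and 0.449% lower. With the mouse as a block in edgeR, 0 of 9 members were called, where 0.728% of all genes were called higher and 0% lower. At an unadjusted p under 0.05 in that fit, 3 members were lower (Epcam, Cd24a and Muc1) and 1 was higher (Aldh1a1), where 7.33% and 12.3% of all genes were lower and higher. With the block in DESeq2, 1 of 9 was called higher (Aldh1a1) and 0 lower, where 7.57% and 1.65% of all genes were.

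The members did not share 1 direction. The fitted log2 fold change was above 0 for 5 of them and below 0 for 4, with a median of 0.19 against 0.065 for all tested genes. Within mice, 2 members were higher in E-cadLO cells of all 4 mice (Aldh1a1 and Procr), as were 16.8% of all genes, and 2 were lower in all 4 (Epcam and Muc1), as were 14.2%. Epcam was the single member whose groups did not overlap, with all E-cadLO libraries below all E-cadHI libraries, as for 4.2% of all genes. No member lay wholly higher in E-cadLO, as did 3.9% of all genes. Several fitted values depended on mouse 57: without it the log2 fold change was -0.48 for Epcam, -0.41 for Cd24a, -0.57 for Muc1, 0.013 for Cd44, 0.58 for Lgr5 and 0.71 for Procr. Without mouse 58 it was -1.20 for Cd24a and 3.14 for Lgr5.

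**Figure D2:**
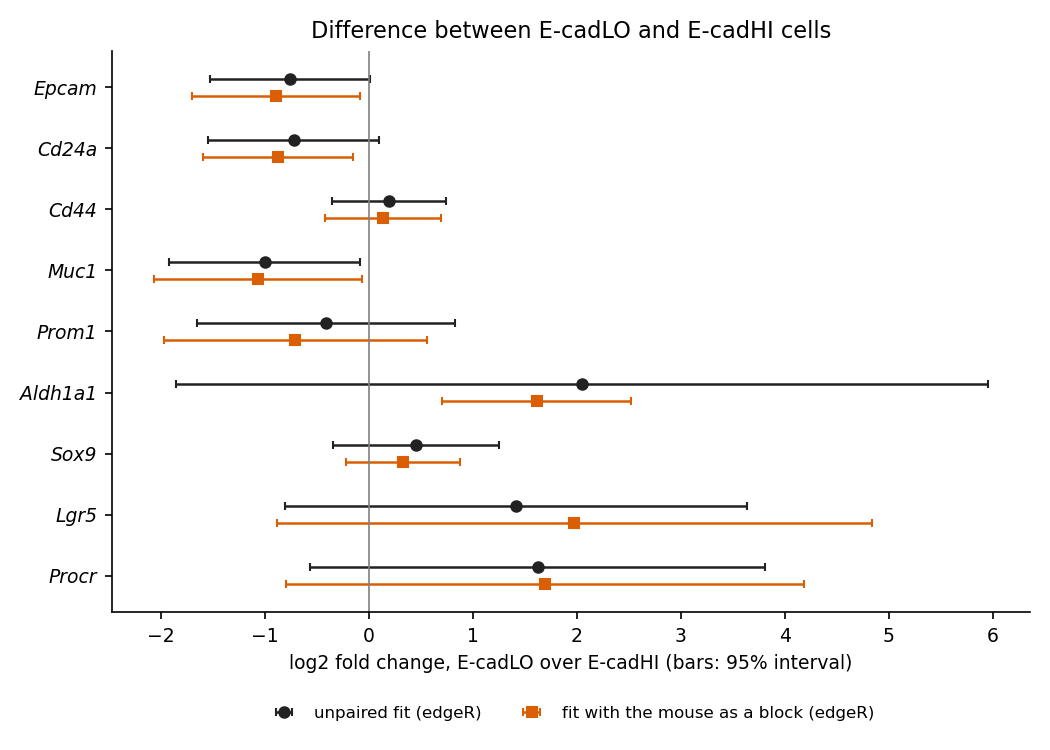
Log2 fold change of E-cadLO over E-cadHI for the 9 markers, with 95% intervals, from edgeR without the mouse (circles) and with the mouse as a block (squares). Without the mouse, the interval of Muc1 alone excludes 0; with it, those of Epcam, Cd24a, Muc1 and Aldh1a1 do, and the interval of Aldh1a1 is far narrower than without it.

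Epcam (ENSMUSG00000045394, chr17:87635979-87651106, plus strand, GRCm38) encodes a homophilic adhesion protein of epithelial cells. In E-cadHI cells it stood at 1340, 1130, 1287 and 1307 CPM in mice 57, 58, 67 and 70. In E-cadLO cells of the same mice it stood at 289, 1098, 824 and 790 CPM. The E-cadHI values lay close together, whereas those of E-cadLO spread from mouse 57, far below its E-cadHI library, to mouse 58, nearly level with it. The mean was 1266 ± 93.2 CPM in E-cadHI and 750 ± 337 CPM in E-cadLO (SD, n = 4), a ratio of 1.69 of E-cadHI over E-cadLO. Its log2 fold change of -0.75 ± 0.34 (SE) had an edgeR adjusted p of 0.363 without the mouse, and the difference did not pass the test. With the mouse as a block the log2 fold change was -0.89 ± 0.35 (edgeR adjusted p = 0.225). DESeq2 with the block gave an adjusted p of 0.0583, so neither blocked fit called it. Within mice the log2 ratio was -2.21, -0.042, -0.64 and -0.73, lower in 4 of 4 mice. No other annotated gene overlapped Epcam, and no 65-base stretch of its transcripts, the length of the reads, occurred in another gene's transcripts.

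Cd24a (ENSMUSG00000047139, chr10:43578284-43584265, plus strand) encodes CD24, a small heavily glycosylated protein anchored in the outer membrane. It stood at 472, 404, 330 and 319 CPM in E-cadHI cells of mice 57, 58, 67 and 70 and at 123, 440, 174 and 189 CPM in their E-cadLO cells. The groups overlapped through mouse 58 alone, where E-cadLO was the higher of the 2. The log2 fold change was -0.72 ± 0.37 (edgeR adjusted p = 0.396) and the within-mouse log2 ratios were -1.93, 0.12, -0.92 and -0.76. With the mouse as a block the log2 fold change was -0.87 ± 0.31 (edgeR adjusted p = 0.205). DESeq2 with the block gave an adjusted p of 0.0534. Of the 65-base stretches of its transcripts, 1.57% also occurred in transcripts of Gm6212, so a small part of its reads could have been placed there.

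Muc1 (ENSMUSG00000042784, chr3:89229057-89233381, plus strand) encodes a transmembrane mucin of the apical surface. Its level was 183, 110, 168 and 83.5 CPM in E-cadHI and 25.5, 106, 77.6 and 63.7 CPM in E-cadLO cells of mice 57, 58, 67 and 70. The groups overlapped, since the E-cadHI library of mouse 70 was already low and the E-cadLO library of mouse 58 was not. Its log2 fold change was -1.001 ± 0.41 with a 95% interval from -1.92 to -0.084, an unadjusted p of 0.0355 and an edgeR adjusted p of 0.333. With the mouse as a block the log2 fold change was -1.06 ± 0.43 (edgeR adjusted p = 0.236). DESeq2 with the block gave an adjusted p of 0.0719. The log2 ratio within mice was -2.82, -0.058, -1.11 and -0.39, lower in 4 of 4.

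Prom1 (ENSMUSG00000029086, chr5:43993620-44102032, minus strand) encodes CD133, a protein of membrane protrusions that is used to enrich tumor-initiating cells. It stood at 47.8, 61.7, 39.7 and 40.5 CPM in E-cadHI and at 5.04, 51.8, 35.8 and 50.2 CPM in E-cadLO cells of mice 57, 58, 67 and 70. A single library, E-cadLO of mouse 57, lay apart, and the other 3 mice differed little in either direction. Its log2 fold change was -0.41 ± 0.55 (edgeR adjusted p = 0.723) and came to -0.067 when mouse 57 was left out. Gm42716 and Gm16401 are annotated within the span of Prom1, the first on the same strand and the second on the other, and 4.11% of its 65-base stretches occurred in other genes.

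These 4 surface markers differed in unequal measure between mice, with the largest differences in mouse 57 and ratios near 0 in mouse 58 for Epcam, Cd24a and Muc1. The keratin Krt8, a filament protein of luminal epithelial cells, was used as a reference inside each library. Krt8 itself had log2 ratios of E-cadLO to E-cadHI of -0.66, 0.33, 0.52 and -0.048 in mice 57, 58, 67 and 70. Csn3, the highest of the tumor epithelium markers, had -3.18, -0.41, -0.49 and -1.07. The ratios below thus depend on the reference chosen. Epcam, Cd24a and Muc1 each had a log2 ratio above that of Csn3 in mice 57, 58 and 70 and below it in mouse 67. Relative to Csn3 they were therefore not lower in E-cadLO of all mice. Relative to Krt8, the log2 ratio of Epcam differed by -1.55, -0.37, -1.16 and -0.68 from E-cadHI to E-cadLO in mice 57, 58, 67 and 70, with a mean of -0.94 ± 0.52 (SD, n = 4). Cd24a relative to Krt8 differed by a mean of -0.90 ± 0.56 and Muc1 by -1.13 ± 0.91, each lower in 4 of 4 mice. Prom1 relative to Krt8 differed by -2.46, -0.57, -0.67 and 0.35, with a mean of -0.84 ± 1.18, and was higher in mouse 70. Relative to Cdh1, Epcam differed by -1.55, -0.50, -0.50 and 0.13, so that mouse 70 did not share that direction. These ratios are descriptions with no test, and those to Krt8 and Cdh1 were not among the planned results. In mouse 57 the summed level of 14 tumor epithelium markers was 29048 CPM in E-cadHI and 7985 CPM in E-cadLO cells, and the 15 markers of fibroblasts and mural cells summed to 31.7 and 1684 CPM. The part of these other transcripts in the lower surface markers of mouse 57 was not tested.

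Cd44 (ENSMUSG00000005087, chr2:102811141-102901665, minus strand) stood at 134, 160, 167 and 165 CPM in E-cadHI and at 214, 174, 228 and 99.99 CPM in E-cadLO cells of mice 57, 58, 67 and 70. It was higher in E-cadLO cells of 3 mice and lower in mouse 70, and the groups overlapped. In the fit its log2 fold change was 0.19 ± 0.24, with a 95% interval from -0.35 to 0.74 and an edgeR adjusted p of 0.704. Fold changes outside 0.782 to 1.67 thus lay beyond the interval. Within mice the log2 ratio was 0.68, 0.12, 0.45 and -0.72, with a mean of 0.13 ± 0.61 (SD, n = 4) that was -0.051 without mouse 57.

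The balance of Cd44 to Cd24a was read as the log2 ratio of their CPM in a library. It was -1.82, -1.33, -0.98 and -0.95 in E-cadHI cells of mice 57, 58, 67 and 70, so that Cd24a had more CPM than Cd44 in each. In E-cadLO cells it was 0.79, -1.34, 0.39 and -0.91. The balance thus lay further towards Cd44 in E-cadLO cells of mice 57 and 67, by 2.61 and 1.37, and was nearly level in mice 58 and 70, at -0.0052 and 0.036. The mean difference of 1.002 was smaller than its SD over mice of 1.25, and in mice 57 and 67 the lower Cd24a made up more of it than the higher Cd44. These are populations, and the libraries do not show whether any cell was high for CD44 and low for CD24.

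**Figure D3:**
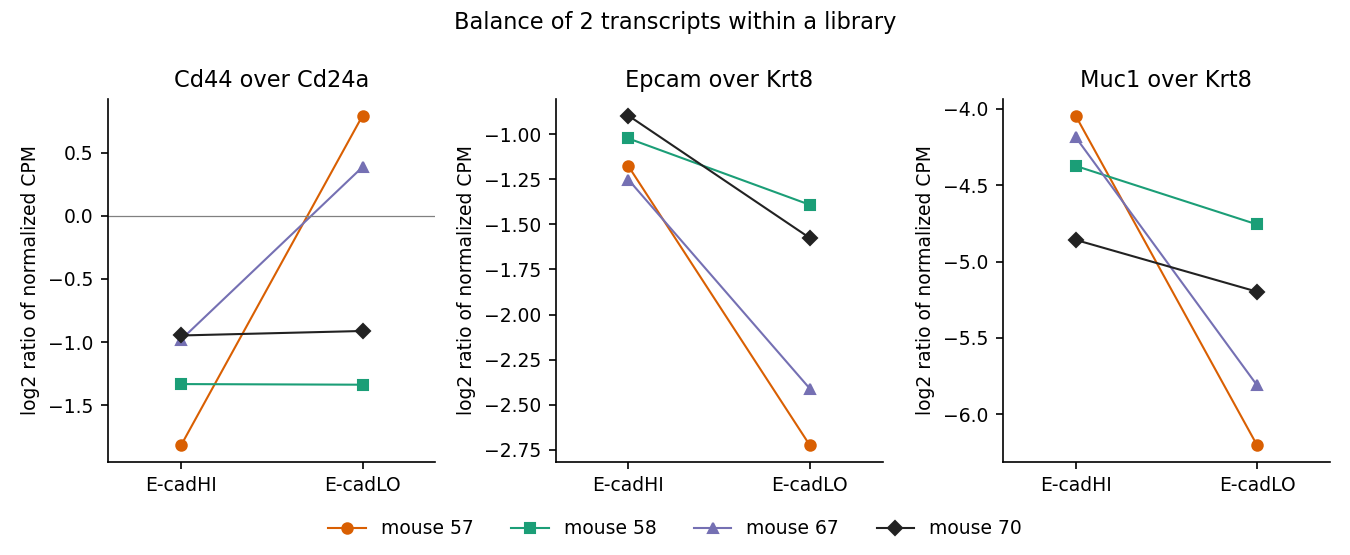
Log2 ratio of the normalized CPM of 2 transcripts within a library, for Cd44 over Cd24a, Epcam over Krt8 and Muc1 over Krt8, in E-cadHI and E-cadLO cells with a line per mouse. Cd44 over Cd24a is higher in E-cadLO of mice 57 and 67 and level in mice 58 and 70, while Epcam and Muc1 over Krt8 are lower in all 4 mice; each panel has its own range.

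Aldh1a1 (ENSMUSG00000053279, chr19:20601961-20643462 in the count table, plus strand) encodes a retinaldehyde dehydrogenase that contributes to the aldehyde dehydrogenase activity used to sort stem-like tumor cells. It stood at 0.764, 1.76, 0.593 and 38.0 CPM in E-cadHI cells of mice 57, 58, 67 and 70 and at 1.33, 2.55, 4.16 and 161 CPM in their E-cadLO cells. The groups overlapped, and both libraries of mouse 70 stood far above the other 6. Within mice it was higher in E-cadLO in 4 of 4, with log2 ratios of 0.54, 0.43, 2.09 and 2.07. In mice 57 and 58 the counts were low, 11 and 23 against 18 and 22, and the exact counting intervals of the E-cadLO over E-cadHI ratio, 0.780 to 4.09 and 0.770 to 2.72, included 1. In mice 67 and 70 the ratio was 7.02 (95% interval 3.35 to 17.0) and 4.24 (3.83 to 4.71), intervals that cover counting error alone.

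The unpaired fit gave Aldh1a1 a log2 fold change of 2.05 ± 1.74 (edgeR adjusted p = 0.568), and DESeq2 without the mouse gave no adjusted p. With the mouse as a block the log2 fold change was 1.62 ± 0.39 (edgeR adjusted p = 0.120), and DESeq2 with the block called it (adjusted p = 0.00218). The unpaired value depended on which library of mouse 70 was kept: without its E-cadLO library the log2 fold change was -1.90 (edgeR adjusted p = 0.510), without its E-cadHI library it was 5.32 (0.337), and without both it was 1.37 (0.437). With the block, leaving out mouse 57 brought the adjusted p to 0.0242, and leaving out mouse 67 or mouse 70 brought it to 0.456 and 0.437.

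The transcripts nearest to Aldh1a1 over the 8 libraries were those of Etnppl (Pearson r = 0.986), Sept4 (0.978) and Agt (0.977), as a description on log2(CPM + 0.5), and without mouse 70 they had r = 0.873, 0.929 and 0.812. Etnppl and Agt are known from astrocytes, Agt being angiotensinogen. Etnppl stood at 31.7 and 109.5 CPM in the E-cadHI and E-cadLO cells of mouse 70 and at 0.139 to 3.76 CPM in the other 6 libraries. The 13 astrocyte markers other than Aldoc and Sox9, with Agt among them, summed to 1764 and 6487 CPM in mouse 70 and to 153 to 952 CPM in the other 6. With Aldoc kept, the 14 markers summed to 3990 and 11375 CPM in mouse 70 and to 745 to 2081 CPM in the other 6. In mouse 57 the direction of the sum depended on Aldoc. Without it the 13 markers summed to 153 CPM in E-cadHI and 621 CPM in E-cadLO, higher in E-cadLO as Aldh1a1 was. With Aldoc kept, the sum was lower in E-cadLO (745 CPM) than in E-cadHI (1154 CPM). The 14 oligodendrocyte markers summed to 8752 and 34825 CPM in mouse 70 and to 609 to 4394 CPM in the others, led by Mbp and Mobp of the myelin sheath. The part of astrocytes or oligodendrocytes in the level of Aldh1a1 was not tested. Aldh1a7, which shares 1.70% of the 65-base stretches of Aldh1a1, stood at 0 to 1.53 CPM. In the GENCODE M21 annotation Aldh1a1 overlaps C730002L08Rik and Gm6684 on the other strand, and since the sources do not give the strand setting of the counts, reads of these genes cannot be told apart from it.

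**Figure D4:**
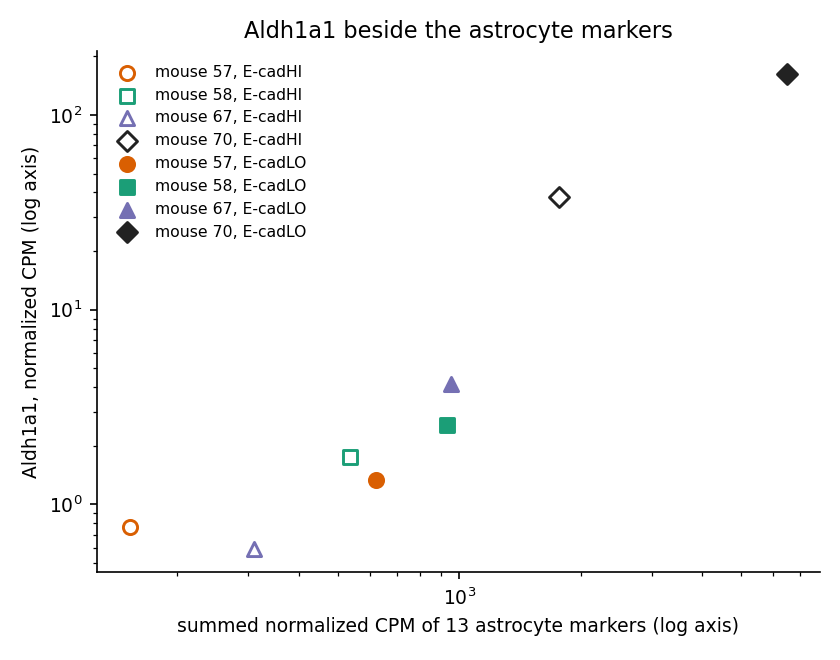
Normalized CPM of Aldh1a1 against the summed normalized CPM of 13 astrocyte markers (Aldoc and Sox9 left out), both on log axes, with open symbols for E-cadHI, filled symbols for E-cadLO and a symbol shape per mouse. The 2 libraries of mouse 70 lie at 38.0 and 161 CPM of Aldh1a1 and at 1764 and 6487 CPM of the markers, apart from the other 6 at the lower left. The marker sum of mouse 57 as plotted is higher in E-cadLO (621 CPM) than in E-cadHI (153 CPM). With Aldoc kept, it would be lower in E-cadLO (745 CPM) than in E-cadHI (1154 CPM).

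Sox9 (ENSMUSG00000000567, chr11:112782224-112787760, plus strand) encodes a transcription factor of mammary progenitors that astrocytes also make. It stood at 50.4, 50.9, 50.9 and 79.0 CPM in E-cadHI and at 35.9, 87.4, 62.2 and 131 CPM in E-cadLO cells of mice 57, 58, 67 and 70. Mouse 70 was highest in each population, and E-cadLO of mouse 57 was the lowest of all. Its log2 fold change was 0.45 ± 0.36 (edgeR adjusted p = 0.542) and the log2 ratios within mice were -0.48, 0.77, 0.29 and 0.72, so mouse 57 went against the other 3. Without the E-cadLO library of mouse 70 the fitted value was 0.11, and without both libraries of that mouse 0.29. The nearest transcripts were Cpe (r = 0.977), Pfn2 (0.976) and Abhd12 (0.975). Over the 8 libraries Sox9 went with Aldh1a1 (r = 0.83, Spearman rho 0.83), and both were highest in the E-cadLO library of mouse 70, whose astrocyte sum is given above.

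Lgr5 (ENSMUSG00000020140, chr10:115450311-115587780, minus strand) encodes a receptor for R-spondins that amplifies Wnt signalling. It was close to the limit of detection, with 1, 23, 1 and 6 counts in E-cadHI and 40, 6, 29 and 13 counts in E-cadLO cells of mice 57, 58, 67 and 70. These counts correspond to 0.0695, 1.76, 0.0741 and 0.525 CPM and to 2.96, 0.696, 1.95 and 0.906 CPM. In these libraries 3 counts correspond to 0.201 to 0.348 CPM, so E-cadHI of mice 57 and 67 lay below that floor. In those mice the ratio of E-cadLO over E-cadHI was 42.6 (95% counting interval 7.23 to 1726) and 26.3 (4.36 to 1073), whereas in mouse 58 it was 0.395 (0.132 to 0.998) and in mouse 70 it was 1.73 (0.612 to 5.53). Mouse 58 thus went against the others by little more than the counting error. The fitted log2 fold change was 1.42 ± 0.99 (edgeR adjusted p = 0.504), and the groups overlapped. A930009A15Rik overlaps Lgr5 on the other strand.

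Procr (ENSMUSG00000027611, chr2:155751117-155755471, plus strand) encodes the receptor of protein C, an anticoagulant protease, and marks a set of multipotent mammary stem cells. It had 0, 17, 6 and 14 counts in E-cadHI and 57, 13, 14 and 36 counts in E-cadLO cells of mice 57, 58, 67 and 70, or 0, 1.30, 0.445 and 1.23 CPM and 4.22, 1.51, 0.940 and 2.51 CPM. Set against a floor of 3 counts in the E-cadHI library, it was 20.3-fold higher in E-cadLO of mouse 57. The exact 95% counting interval of that ratio had a lower limit of 15.95. In mice 58, 67 and 70 the ratio was 1.16 (95% counting interval 0.517 to 2.53), 2.11 (0.763 to 6.71) and 2.05 (1.08 to 4.11). It was thus higher in 4 of 4 mice, with a counting interval that excluded 1 in mouse 70 and a bound above 1 in mouse 57. The fitted log2 fold change was 1.63 ± 0.97 (edgeR adjusted p = 0.453), and the groups overlapped. Its nearest transcripts were Ptprs (r = 0.962), Lrp1 (0.955) and Dkk3 (0.946). In mouse 57 the markers of fibroblasts and mural cells were at 31.7 CPM in E-cadHI and 1684 CPM in E-cadLO, and the 14 markers of endothelium other than Procr summed to 294 and 238 CPM. That sum was led by the glucose transporter gene Slc2a1, and the median log2 ratio over the 12 tested endothelium genes, Procr included, was 1.44 in that mouse. The part of these cells in the level of Procr was not tested.

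Among the surface genes that stand nearest to the first group, 13 of 14 other epithelial surface genes were tested and 0 were called in edgeR. The log2 fold change was below 0 for 11 of the 13, with a median of -0.44, where 44.9% of all tested genes were below 0 and the median was 0.065. At an unadjusted p under 0.05, 5 were lower, where 5.81% of all genes were. Muc15, a membrane mucin, had the highest level and a range of 995 to 2542 CPM in E-cadHI and 256 to 1302 CPM in E-cadLO cells, with a log2 fold change of -1.08 ± 0.48 (adjusted p = 0.354), lower in 4 of 4 mice. DESeq2 with the mouse as a block called Muc15 lower (adjusted p = 0.0450), the single gene of this list it called. The tetraspanin Cd9 stood at 573 to 787 and 470 to 543 CPM, so its groups did not overlap, and its log2 fold change was -0.44 ± 0.16 (adjusted p = 0.305). Spint2, an inhibitor of surface proteases, had -0.58 ± 0.25 (adjusted p = 0.346) and the junction protein F11r had -0.16 ± 0.22 (adjusted p = 0.722). The median log2 ratio over its tested genes was -1.36, 0.16, -0.61 and -0.38 in mice 57, 58, 67 and 70, against 0.00048 to 0.066 for all tested genes. As for Epcam, Cd24a and Muc1, the value was lowest in mouse 57 and highest in mouse 58.

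Of 33 further genes used to mark mammary stem and progenitor cells, 25 were tested and 0 were called in edgeR, with 9 log2 fold changes above 0, 16 below and a median of -0.21 (all tested genes 0.065). Cd14, a co-receptor found on luminal progenitors, had the highest level, 446 to 1075 CPM in E-cadHI and 144 to 533 CPM in E-cadLO cells, and a log2 fold change of -1.13 ± 0.42 (adjusted p = 0.308). The integrin chain Itgb1 had -0.24 ± 0.24 (adjusted p = 0.638), the transcription factor Myc 0.33 ± 0.21 (adjusted p = 0.461) and the transporter Abcg2 -0.21 ± 0.24 (adjusted p = 0.668). Myc was higher in E-cadLO of 4 of 4 mice and Cd14 lower in 4 of 4. DESeq2 with the mouse as a block called 6 genes of this list, all lower, where 1.65% of all genes were called lower and 7.57% higher: Itga6, Kit, Cd14, Tspan8, Cd55 and Elf5. These 6, other than Cd14, were named after their values were seen. Elf5 and Kit are known from luminal progenitors of the mammary gland. The list did not share 1 direction. At an unadjusted p under 0.05 in edgeR without the mouse, 4 of its genes were lower and 2 higher. Over all tested genes these shares were 5.81% and 8.16%. Within mice, 7 were lower and 5 higher in E-cadLO of all 4.

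The list of ligands and partners of the members held 24 genes, of which 14 were tested and 0 were called in edgeR, with 6 log2 fold changes above 0, 8 below and a median of -0.092. Spp1 encodes osteopontin, a ligand of CD44, and stood at 2700 to 7685 CPM in E-cadHI and 1112 to 3916 CPM in E-cadLO cells, with a log2 fold change of -0.87 ± 0.42 (adjusted p = 0.384). The claudins Cldn3 and Cldn7, tight-junction proteins of which Cldn7 binds EpCAM, had -0.17 ± 0.24 (adjusted p = 0.742) and -0.34 ± 0.27 (adjusted p = 0.551). Msn encodes moesin, which links CD44 to actin, and stood at 143 to 269 CPM in E-cadHI and 240 to 761 CPM in E-cadLO cells, with a log2 fold change of 0.99 ± 0.36 (adjusted p = 0.305), higher in 4 of 4 mice. DESeq2 with the block called 2 genes of this list higher, Msn and Selplg, where 7.57% of all genes were, the second named after its value was seen. Selplg encodes a selectin ligand of leukocytes and is also expressed by microglia. Within mice Selplg was higher in E-cadLO of 3 mice and lower in mouse 57, with a log2 ratio of -0.26. The sum of the microglia and macrophage markers was higher in E-cadLO of 4 of 4 mice. The part of these cells in the level of Selplg was not tested. The R-spondins Rspo1 to Rspo4, ligands of LGR5, did not pass the filter, and Rspo4 had no counts in any library.

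The nearest transcripts of the remaining members are given as descriptions over the 8 libraries, which are pairs from 4 mice. Those of Epcam were Slc15a2 (r = 0.996), Me1 (0.992) and Sulf2 (0.992), those of Cd24a were Rac3 (0.996), Emid1 (0.985) and Tmem229b (0.983), and those of Muc1 were Knop1 (0.997), Ispd (0.988) and Ctps2 (0.988). Without mouse 57 these 9 values lay between 0.937 and 0.993. Prom1 lay nearest to 2010107G23Rik (0.986), Npm1 (0.983) and Dtwd2 (0.981), but without mouse 57 these fell to 0.651, 0.764 and 0.601. Cd44 lay nearest to Ino80 (0.982), Zfp518a (0.975) and Arid2 (0.946), and Lgr5 to Diaph3 (0.979), Neurl4 (0.947) and Mcm3ap (0.943). Among the members themselves, Epcam and Muc1 went together (r = 0.92, Spearman rho 0.86), and Muc1 went against Procr (r = -0.90, Spearman rho -0.79).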

How the data were processed

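The authors mapped single reads of 65 bases with HISAT2 2.1.0 to GRCm38 and deposited whole-number counts per gene, without normalization. The paper names Icount as the counter and the submitters' processing notes name HTSeq, and the strand setting and the treatment of reads that match several genes are not given in the sources used here. Of 32259 entries, 365 without a gene identifier (0.0636% to 0.0954% of the counts) were left out of totals and tests.

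The test was that of edgeR 4.0.16 (R 4.3.3) with TMM normalization, filterByExpr by population and the quasi-likelihood test, with Benjamini-Hochberg adjustment over 13598 genes and a threshold of 0.05, without a block, since the study's methods name DESeq2 and no block. Within-mouse ratios used CPM plus 0.5. The mouse number in the labels pairs the 2 populations of an animal, and deviations from the group means correlated at 0.275 to 0.698 between libraries of the same mouse and at -0.516 to 0.153 between mice. The alternatives were edgeR with the mouse as a replicate block, DESeq2 1.42.0 with and without it, DESeq2 size factors, no filter, at least 10 counts in every library, each mouse and each library left out, and pseudocounts of 0.1 and 2. The edgeR block without each mouse, and ratios and balances without each mouse, were added after the data were seen. Steps were tested on simulated data. Intervals on counts are 95% and exact (Clopper-Pearson on the share of the 2 counts), and they and the floor of 3 counts cover counting error alone.

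The members and gene lists were chosen with earlier results of these data known. Named are the 9 members, Cdh1, the 4 genes of each related list with the highest mean CPM (and called genes), the 2 highest of each cell type list and, per member, the 3 genes with the highest Pearson r among tested genes of at least 10 CPM; 1 gene under this rule is not reported here. Positions, exon lengths and shared 65-base stretches came from GENCODE M21, and a symbol altered by a spreadsheet (Sept4) was restored by its identifier. Tables and figures were made with Python 3.11, pandas and matplotlib.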

Additional observations from a re-analysis of the deposited data

Results flagged for a closer look

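Among 27 groups of 4 values (the CPM of each member in each population and its within-mouse log2 ratio), 4 held a value far from the other 3. For independent, normally distributed values the rule flags about 1 in 20, or 1.35 groups. The ratios here are made from the same CPM values, so the groups are not independent, and 1.35 is not an expected number for these data. The log2 ratio of Prom1 in mouse 57 was -3.13, with the other mice at -0.25 to 0.31. Aldh1a1 stood at 38.0 CPM in E-cadHI cells of mouse 70, with the others at 0.593 to 1.76 CPM, and at 161 CPM in its E-cadLO cells, with the others at 1.33 to 4.16 CPM. Sox9 stood at 79.0 CPM in E-cadHI cells of mouse 70, with the others at 50.4 to 50.9 CPM. The 3 values of mouse 70 belong to the mouse with the highest sums of astrocyte and oligodendrocyte markers in both populations, and the part of those cells was not tested.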

How the results depend on the processing

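The number of members called (0 higher and 0 lower) was 0 under every alternative but 2: DESeq2 with the replicate block and edgeR with the replicate block without mouse 57 each called 1 higher, Aldh1a1. Over all genes, edgeR with the replicate block without mouse 57 called 425 of 13905 higher and 24 lower, against 99 and 0 with all mice. The fitted direction held in all settings that gave a value for Epcam, Cd24a, Muc1, Prom1, Sox9, Lgr5 and Procr, while 1 setting of 22 reversed Cd44 and 1 of 21 reversed Aldh1a1. Cd44 reversed to -0.070 with the replicate block without mouse 57, and its mean within-mouse log2 ratio to -0.051 without that mouse (range with each mouse left out -0.051 to 0.42). Aldh1a1 reversed to -1.90 without the E-cadLO library of mouse 70, and ranged from there to 5.32 with each library left out. In the related lists, DESeq2 with the replicate block called 1 epithelial surface gene and 6 stem and progenitor genes lower and 2 ligands or partners higher, DESeq2 alone called 1 stem and progenitor gene lower, and edgeR with the replicate block without mouse 57 called 2 stem and progenitor genes lower and 2 ligands or partners higher. The cause was not tested. The replicate block changed no other call of a member. Over all genes, edgeR without the block called 0, with it 99, and DESeq2 called 298 higher and 61 lower without it and 1030 higher and 225 lower with it. Lgr5 and Procr, at 0 to 57 counts, are limited by depth.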
